A study of Mus musculus with 6 samples.

Results

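Ceramides are the central lipids of the sphingolipid pathway. They are built in the endoplasmic reticulum from serine and palmitoyl-CoA, first by serine palmitoyltransferase and then by the ceramide synthases and dihydroceramide desaturase. They are also released from sphingomyelin by sphingomyelinases, broken down by ceramidases, or given a sugar by glucosylceramide synthase. In fat tissue, ceramides are known for their link to obesity and impaired insulin action, and the acyl chain that each ceramide synthase attaches is known to matter for that link.

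The 10 genes described here are enzymes of that pathway, taken by gene symbol from a table of 55011 gene symbols. They are the ceramide synthases Cers2, Cers4, Cers5 and Cers6, the serine palmitoyltransferase subunits Sptlc1 and Sptlc2, the desaturase Degs1, and the ceramide turnover enzymes Smpd1, Asah1 and Ugcg. All 10 passed the filter on low counts that left 13859 genes for testing. They were chosen by name, with their Bmal1KO to Bmal1WT fold changes in these same libraries already known, so those differences are given as a description and support nothing further.

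The RNA came from whole visceral adipose tissue of 30-week-old male C57BL/6 mice, kept on low-fat food for 14 weeks and then on high-fat food for 16 weeks. The tissue was labelled ZT0, zeitgeber time 0 h. Both groups carried Foxp3.Cre-YFP, a Cre recombinase tied to a fluorescent protein and driven by Foxp3, a gene of regulatory T cells. There were 3 libraries of genotype WT (bmal1WT, here Bmal1WT) and 3 of genotype KO (bmal1KO, here Bmal1KO). The strain names place the Bmal1 change in mice whose Cre is driven in regulatory T cells, which are a small part of fat tissue, so these libraries read mostly other cells. The groups pose the question of how visceral fat after such feeding compares when Foxp3-expressing cells do or do not have Bmal1.

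Totals ran from 6514620 to 9529198 counts per library. Bmal1KO replicate 1 was the shallowest library and yet had counts on 30019 genes, against 19009 to 20145 in the other 5. Markers of epididymis and testis, 10 genes of which Defb15 and Tnp1 were at 0 throughout, held 2004 counts in Bmal1WT replicate 1 and 4 to 28 counts elsewhere. Arntl, the gene for BMAL1, averaged 33.2 ± 6.16 CPM (read counts scaled to a common library total; SD, n = 3) in Bmal1WT libraries and 40.1 ± 8.06 CPM in Bmal1KO libraries, a weak check of the labels in whole tissue. Foxp3 had 0 counts in all Bmal1WT libraries and at most 3 in a Bmal1KO library. The tissue label fitted the fat cell markers, which summed to at least 24376 CPM over 15 genes in every library.

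The group difference was uneven across the pathway. Cers4 was lower in Bmal1KO fat (0.548-fold) and Cers6 was higher (1.57-fold), and in both the 3 libraries of one group lay apart from the 3 of the other. Degs1 and Cers5 were lower by smaller amounts (0.784-fold and 0.808-fold), also without overlap, while both serine palmitoyltransferase subunits and the acid ceramidase Asah1 were within 1.13-fold of Bmal1WT. By the quasi-likelihood test of edgeR, adjusted after Benjamini and Hochberg, 0 of these 10 and 0 of all 13859 genes passed (0%, smallest adjusted p = 0.265 over all genes and 0.318, for Cers4, among the 10). The unadjusted p was under 0.05 for 1290 genes, of which 3 were among the 10. DESeq2 with its own filtering called 60 genes, Cers4 among them (adjusted p = 0.00768), and limma voom with quality weights called 0.

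The start regions of Cers4 and Cers6, the pair of ceramide synthases that stood furthest apart in opposite directions, are shown here from 250 bases before to 50 bases after the RefSeq start. They were read 5′ to 3′ on the plus strand of GRCm38.p6, which has the coordinates of mm10. Capitals mark an E-box, the letters CACGTG to which BMAL1 is known to bind with its partner CLOCK. Cers4 lies at chr8:4493155-4493454 and Cers6 at chr2:68861191-68861490.
Cers4: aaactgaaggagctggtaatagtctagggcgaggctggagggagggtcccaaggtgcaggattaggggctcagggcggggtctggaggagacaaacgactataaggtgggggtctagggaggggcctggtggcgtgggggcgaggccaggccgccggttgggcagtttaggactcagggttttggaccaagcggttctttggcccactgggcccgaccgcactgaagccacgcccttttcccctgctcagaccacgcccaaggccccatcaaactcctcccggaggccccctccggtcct
Cers6: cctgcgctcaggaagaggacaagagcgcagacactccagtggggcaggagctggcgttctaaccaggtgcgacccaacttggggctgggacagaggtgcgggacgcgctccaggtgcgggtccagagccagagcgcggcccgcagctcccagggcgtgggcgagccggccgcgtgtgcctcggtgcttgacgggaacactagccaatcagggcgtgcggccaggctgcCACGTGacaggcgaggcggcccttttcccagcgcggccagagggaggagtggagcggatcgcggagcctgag

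The Cers6 window holds CACGTG with its first base at position -22 from the start, and the Cers4 window holds none. RefSeq start regions were found for all members except Asah1, 10 windows in all because Cers2 has 2, and 3 of the 10 (30%) hold the E-box, those of Cers6, Degs1 and 1 start of Cers2. Among all 32851 RefSeq windows of that length, 7.15% hold it. The 10 windows are 54.3% to 81.3% G or C, and the background was not matched for that. Nothing is therefore read from the 30%. The D-box TTANGTAA, searched on both strands like the E-box, was in 0 of the 10 windows and in 2.32% of all. Of these 3 genes, Cers6 was higher in Bmal1KO, Degs1 was lower, and Cers2 was lower with overlapping groups (0.811-fold). Whether the E-boxes bear on these levels was not tested. A match of letters is a description of the sequence and shows no binding in this tissue.

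Levels of different genes are compared here per kilobase of the longest principal transcript in GENCODE M21. In Bmal1WT fat, Degs1 was the highest of the 10 at 268 ± 19.3 CPM per kilobase (SD, n = 3), followed by Cers2 at 144 ± 15.8 and Asah1 at 126 ± 18.4. Cers5 was at 57.2 ± 2.19 and Smpd1 at 55.3 ± 6.79 CPM per kilobase. Sptlc1 was at 27.2 ± 3.18, Sptlc2 at 16.0 ± 0.932 and Cers4 at 15.8 ± 1.32. Cers6, at 4.42 ± 0.540, and Ugcg, at 1.13 ± 0.0884 CPM per kilobase, were the lowest. The ranges of neighbours in this order overlapped for Cers2 and Asah1, for Cers5 and Smpd1, and for Sptlc2 and Cers4, so those orders were not resolved. In Bmal1KO fat the order was the same except that Asah1 stood above Cers2, again with overlapping ranges. There the ranges of Sptlc2 and Cers4 were apart, with every Sptlc2 value above every Cers4 value, and those of Cers4 and Cers6 overlapped. Cers5 and Smpd1 overlapped in both groups. With the length of all annotated exons in place of the principal transcript, Asah1 stood above Cers2 and Smpd1 above Cers5 in both groups. The annotated principal transcript of Cers4 is 9.475 kilobases long against 2.216 for Cers2, so a shorter transcript in this tissue would put Cers4 higher.

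**Figure D1:**
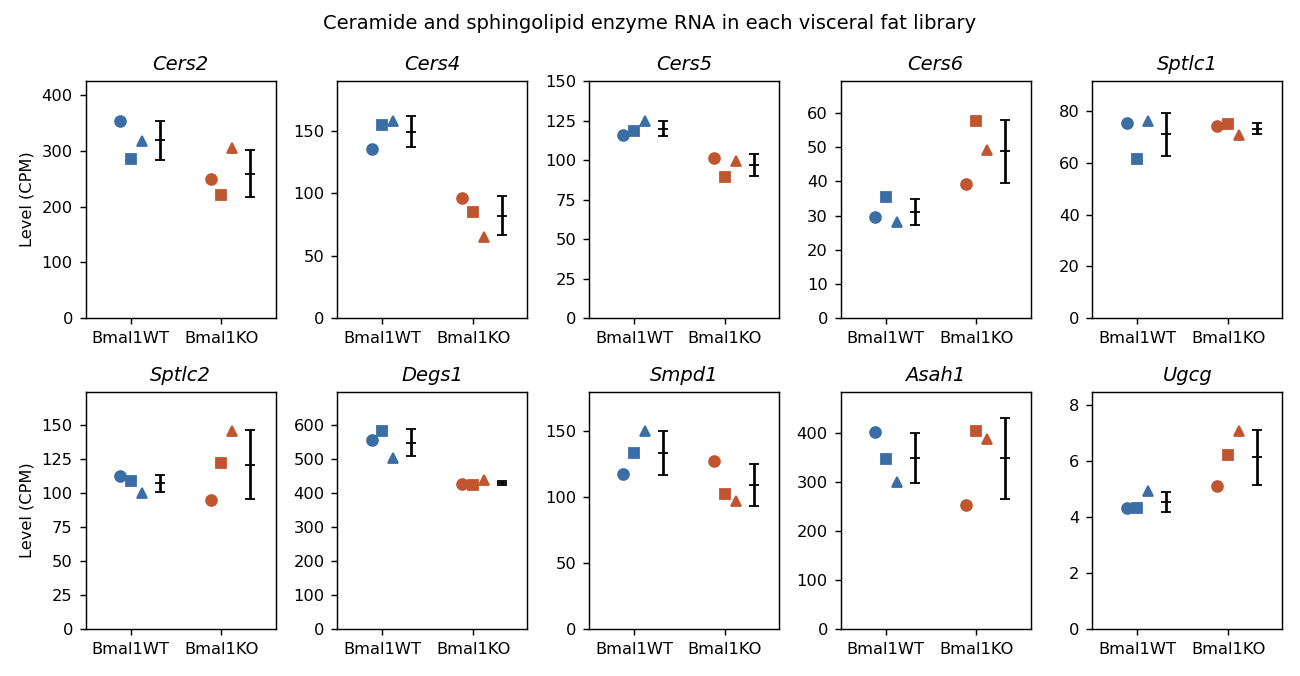
Level of each of the 10 enzymes in CPM (linear axes from 0), with circles, squares and triangles for replicates 1, 2 and 3, blue for Bmal1WT and orange for Bmal1KO, and black bars for mean ± SD (n = 3). Cers4, Cers5 and Degs1 were lower and Cers6 and Ugcg higher in all 3 Bmal1KO libraries, and the groups of the other 5 genes overlapped.

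Serine palmitoyltransferase makes the first, rate-limiting step, and Sptlc1 and Sptlc2 encode its core pair of subunits. Sptlc1 had levels, in the order of replicates 1 to 3, of 75.2, 61.4 and 76.3 CPM for Bmal1WT and of 74.1, 74.9 and 70.6 CPM for Bmal1KO. All 3 Bmal1KO libraries lay inside the Bmal1WT range, and the log2 fold change was 0.04 with SE 0.16, or -0.05 without Bmal1WT replicate 2. Sptlc2, which carries the catalytic lysine, was at 113, 109 and 100.5 CPM in Bmal1WT libraries and 94.9, 122 and 146 CPM in Bmal1KO libraries. Bmal1KO replicate 1 was below every Bmal1WT library and replicates 2 and 3 were above, and the log2 fold change was 0.17 with SE 0.18. It was 0.32 without Bmal1KO replicate 1 and 0.01 without Bmal1KO replicate 3. The ratio of Sptlc2 to Sptlc1 per kilobase was 0.594 ± 0.0895 in Bmal1WT and 0.644 ± 0.152 in Bmal1KO (SD, n = 3), with overlapping groups.

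Ceramide synthases attach the acyl chain, and each prefers certain chain lengths. Cers4 (ENSMUSG00000008206.16, mm10 chromosome 8, 4493026 to 4531680, plus strand) prefers long saturated chains such as stearoyl. Its level was 135, 155 and 158 CPM in the Bmal1WT libraries, against 95.9, 84.9 and 65.1 CPM in the Bmal1KO libraries. The highest Bmal1KO library was thus below the lowest Bmal1WT library. The means were 149 ± 12.5 and 82.0 ± 15.6 CPM (SD, n = 3), and its log2 fold change of -0.87 (SE 0.18) was the largest difference among the 10. With 1 library left out it ran from -0.996 without Bmal1KO replicate 1 to -0.73 without Bmal1KO replicate 3. Without Bmal1KO replicate 1 its adjusted p was 0.0326, the only one of the 6 such fits in which Cers4 passed edgeR's test. In that fit 156 of 14247 genes passed. Of its 12264 annotated exon bases, 1100 overlap a pseudogene or an unconfirmed transcript on the other strand, whose reads these unstranded libraries cannot separate.

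Cers6 (ENSMUSG00000027035.10, mm10 chromosome 2, 68861441 to 69114282, plus strand), a synthase of palmitoyl ceramide, was at 29.7, 35.4 and 28.2 CPM in Bmal1WT libraries and 39.2, 57.8 and 49.3 CPM in Bmal1KO libraries. Every Bmal1KO library was above every Bmal1WT library, with Bmal1KO replicate 1 the closest. The means were 31.1 ± 3.80 and 48.8 ± 9.26 CPM, and the log2 fold change of 0.65 (SE 0.20) ran from 0.50 without Bmal1KO replicate 2 to 0.78 without Bmal1KO replicate 1. Cers5, the other palmitoyl ceramide synthase, went the opposite way, at 116, 119 and 125 CPM in Bmal1WT and 102, 89.2 and 99.8 CPM in Bmal1KO. Its groups did not overlap either, but the gap was narrow, and the log2 fold change was -0.31 with SE 0.15.

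Cers2, which makes very-long-chain ceramides, was the most abundant synthase. It was at 354, 285 and 318 CPM in Bmal1WT libraries and 250.1, 222 and 305 CPM in Bmal1KO libraries. Bmal1KO replicate 3 lay inside the Bmal1WT range, and the log2 fold change was -0.30 with SE 0.17. Of its 3676 exon bases, 219 overlap other annotated genes on the opposite strand. Summed over the 4 synthases, the level was 619.6 ± 22.7 CPM in Bmal1WT and 487 ± 32.8 CPM in Bmal1KO (SD, n = 3), without overlap. That sum is not scaled to transcript length, so the long Cers4 transcript weighs more in it than it would per kilobase.

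The make-up of the ceramide synthase RNA does not depend on how libraries are scaled. Per kilobase, Cers4 made up 7.16 ± 0.948% of the RNA of the 4 synthases in Bmal1WT and 4.93 ± 1.28% in Bmal1KO (SD, n = 3). Cers6 made up 2.01 ± 0.370% in Bmal1WT and 3.93 ± 1.06% in Bmal1KO. Neither share overlapped between the groups, while those of Cers2 (64.9 ± 3.16% and 65.2 ± 3.48%) and Cers5 (25.9 ± 1.96% and 26.0 ± 1.84%) overlapped. The gap for Cers4 was narrow, between 6.10% in Bmal1WT replicate 1 and 5.72% in Bmal1KO replicate 1. The ratio of Cers4 to Cers6 in CPM was 4.56, 4.38 and 5.61 for Bmal1WT, replicate by replicate, and 2.44, 1.47 and 1.32 for Bmal1KO. Bmal1KO replicate 1 was thus the nearest to Bmal1WT but still outside its range. These shares and ratios restate the differences of Cers4 and Cers6, which were singled out by their known fold changes. They are a description and no further support.

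**Figure D2:**
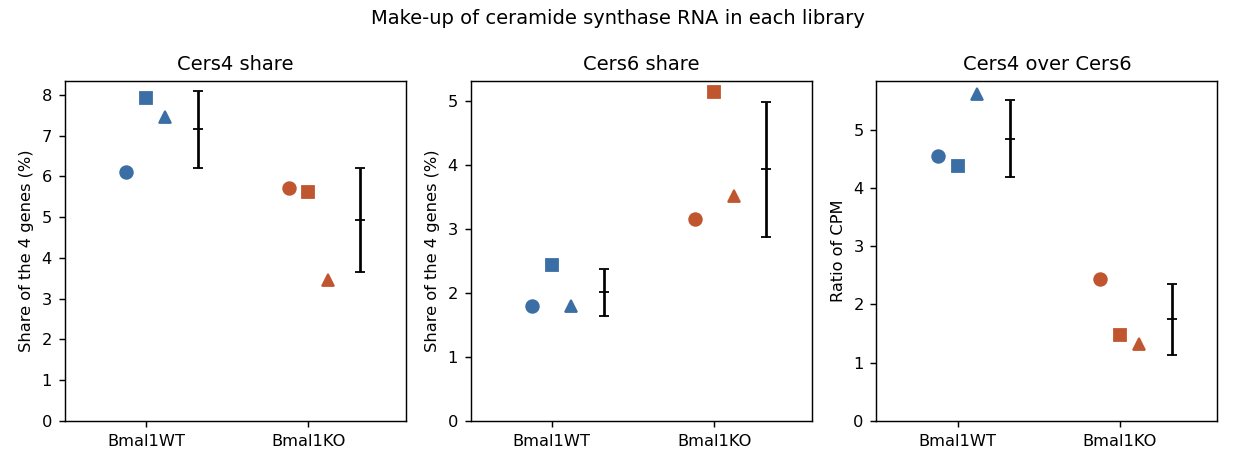
Share of Cers4 and of Cers6 in the summed level per kilobase of Cers2, Cers4, Cers5 and Cers6 (%), and the ratio of Cers4 to Cers6 in CPM, for each library, with circles, squares and triangles for replicates 1, 2 and 3 and black bars for mean ± SD (n = 3). The Cers4 to Cers6 ratio was between 4.38 and 5.61 in Bmal1WT and between 1.32 and 2.44 in Bmal1KO.

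Degs1 (ENSMUSG00000038633.5, mm10 chromosome 1, 182275772 to 182282804, minus strand) encodes the desaturase that turns dihydroceramide into ceramide. It was at 557, 583 and 505 CPM in Bmal1WT libraries and 427, 425 and 438 CPM in Bmal1KO libraries. The Bmal1KO libraries lay close together and below every Bmal1WT library, with means of 548 ± 39.6 and 429.9 ± 6.87 CPM (SD, n = 3). The log2 fold change was -0.35 with SE 0.15, and it ran from -0.40 to -0.30 with 1 library left out.

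Among the turnover enzymes, Smpd1, the acid sphingomyelinase of lysosomes, was at 117, 133 and 149.9 CPM in Bmal1WT libraries and 127, 102 and 97.3 CPM in Bmal1KO libraries. Bmal1KO replicate 1 lay inside the Bmal1WT range and the other 2 Bmal1KO libraries below it, and the log2 fold change was -0.29 with SE 0.17. Asah1, the acid ceramidase that splits ceramide into sphingosine and fatty acid, was at 401, 346 and 299.7 CPM in Bmal1WT libraries and 252, 403 and 388 CPM in Bmal1KO libraries. Its log2 fold change was -0.0047 with SE 0.21, and the value hides a split, with Bmal1KO replicate 1 the lowest of the 6 and replicate 2 the highest. Without Bmal1KO replicate 1 it was 0.18.

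Ugcg, the glucosylceramide synthase that opens glycosphingolipid synthesis, had the lowest level of the 10, with 38, 37 and 46 counts in Bmal1WT and 34, 55 and 57 in Bmal1KO. That was 4.33, 4.34 and 4.95 CPM against 5.11, 6.23 and 7.07 CPM. The groups did not overlap, although Bmal1KO replicate 1 stood only just above the highest Bmal1WT library. The log2 fold change of 0.44 had an SE of 0.39, the widest among the 10.

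Of the 10, 4 were higher and 6 lower in Bmal1KO, where 52% of all tested genes were higher and 48% lower, and the median log2 fold change was -0.15, beside 0.02 over all tested genes. That median was -0.06 without Bmal1WT replicate 1, beside 0.04 over all genes of that fit. With library size alone for scaling it was -0.05, beside 0.11 over all genes. At an unadjusted p under 0.05 there were 1 higher (Cers6, where 5.05% of all genes were higher) and 2 lower (Cers4 and Degs1, where 4.26% of all genes were lower). The groups did not overlap in 5 of the 10, which were 2 higher (background 7.83%) and 3 lower (background 7.85%). Over all tested genes 15.7% did not overlap. These backgrounds are given for scale, and nothing is read from the count, since the values were known when the genes were picked. Leaving out Bmal1WT replicate 1 gave 6 of 10 without overlap (24.3% of all genes), leaving out Bmal1KO replicate 1 gave 7 (34% of all genes), and leaving out both gave 8 (46.2%).

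Markers of the cell types that fat holds also differed between these libraries, and in whole tissue fewer cells of a type cannot be told apart from less RNA per cell. All 15 adipocyte markers were lower in Bmal1KO, and their summed level was between 37770 and 47240 CPM in Bmal1WT and between 24376 and 46149 CPM in Bmal1KO. Bmal1KO replicate 1, at 46149 CPM, was inside the Bmal1WT range for these markers. Its Cers2, Cers4, Cers5, Sptlc2, Degs1 and Asah1 levels were below the Bmal1WT range. In that library Cers6 and Ugcg were above the range, and Sptlc1 and Smpd1 were inside it. In Bmal1KO replicates 2 and 3 the adipocyte sum stood at -0.52 and -0.81 log2 units from the Bmal1WT mean, and Cers4 at -0.81 and -1.19. Any part of adipocyte content in the enzyme levels was not tested.

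Macrophage markers summed to between 12294 and 16387 CPM in Bmal1WT and between 10672 and 23662 CPM in Bmal1KO, with 13 of 14 higher in Bmal1KO. Bmal1KO replicate 1 had the lowest macrophage sum of the 6 libraries and also the lowest Asah1. In the same library Cers6 was above the Bmal1WT range. The 11 T cell markers were all higher, with sums of 30.2 to 79.6 CPM in Bmal1WT and 96.1 to 235.8 CPM in Bmal1KO. Mast cell markers (6 of 6 tested higher) summed to between 72.6 and 147 CPM in Bmal1WT and between 254.9 and 392 CPM in Bmal1KO. T and mast cell sums were thus higher in all Bmal1KO libraries, and so were the mesothelial sums given below. B cell markers (6 of 6 tested higher) overlapped, at 13.6 to 50.6 and 30.1 to 300.6 CPM.

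Endothelial markers (10 of 10 lower) had overlapping sums of 455 to 968 CPM in Bmal1WT and 314 to 528 CPM in Bmal1KO, and mural cell markers (6 of 6 tested lower) 378 to 384 and 258 to 282 CPM. Mesothelial markers (7 of 7 higher) summed to 226 to 438 CPM in Bmal1WT and 474 to 531 CPM in Bmal1KO, and stromal progenitor markers (5 of 7 higher) to 4060 to 6188 and 4277 to 6014 CPM. Mural cell sums were thus lower in all Bmal1KO libraries, and mesothelial sums were higher in all of them. No marker passed edgeR's test over all genes. The part that any of these cell types has in the enzyme differences was not tested.

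**Figure D3:**
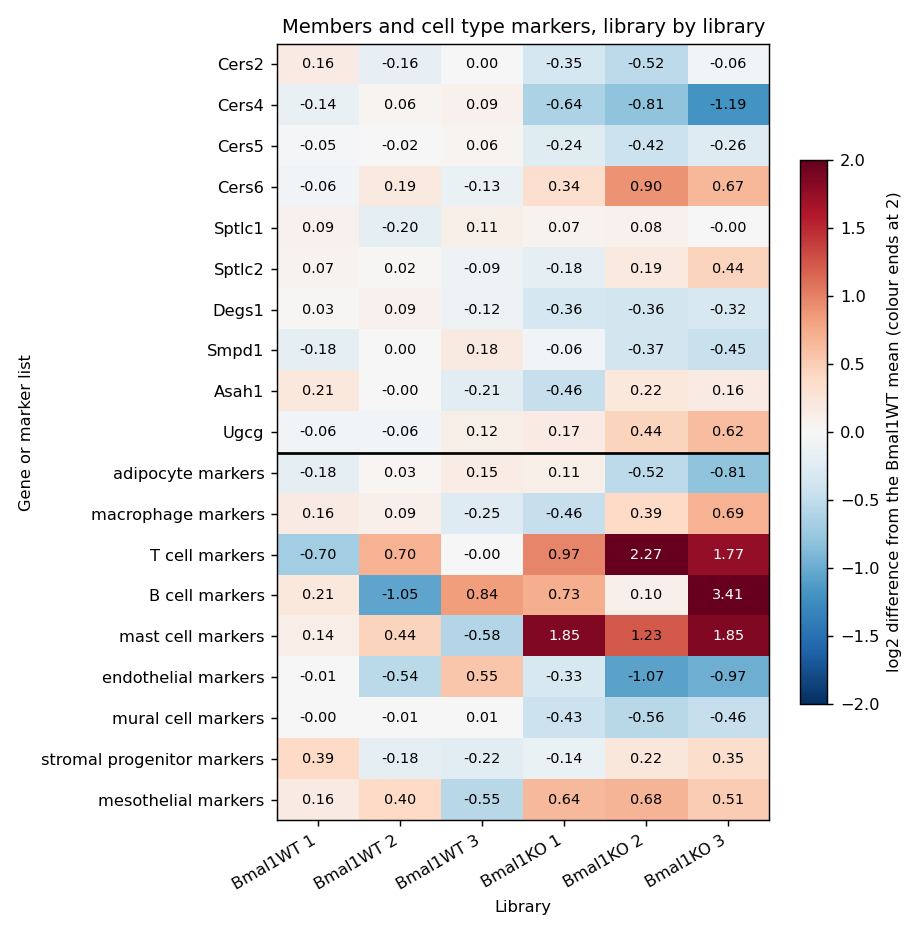
Difference of each library from the Bmal1WT mean in log2 units, for the 10 enzymes (log2 CPM, prior count 2) and, under the line, for the summed CPM of each marker list. Cers4 lay between -1.19 and -0.64 in the 3 Bmal1KO libraries, and adipocyte markers were at 0.11, -0.52 and -0.81.

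To set the 10 enzymes in their pathway, 61 other sphingolipid genes were listed by textbook role, of which 48 passed the filter. None of the 48 passed edgeR's test over all genes (smallest adjusted p = 0.407, for Sgpp1). There were 26 higher and 22 lower in Bmal1KO, with a median log2 fold change of 0.08. At an unadjusted p under 0.05 there were 3 higher and 4 lower, 7 in all, where 9.31% of all tested genes were under that value in either direction. The groups did not overlap in 10 of the 48, 7 higher and 3 lower, where 15.7% of all tested genes did not overlap. Among these 10 were Sptlc3, Sgms1, Sgms2, Smpd2, Acer2, Gltp, Galc, Sgpp1 and Sgpl1. Nothing is read from that count. The median was below 0 without Bmal1WT replicate 2 (-0.0077) and without Bmal1KO replicate 3 (-0.04).

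In de novo synthesis, 2 of 6 tested genes were higher and 4 lower. Sptlc3, an alternative catalytic subunit of serine palmitoyltransferase, had 15, 7 and 17 counts in Bmal1WT and 34, 29 and 33 in Bmal1KO (log2 difference 1.50, SE 0.59, edgeR adjusted p = 0.477). Its groups did not overlap, at a level of 1.45 ± 0.552 CPM in Bmal1WT (SD, n = 3). Kdsr, the reductase between serine palmitoyltransferase and the ceramide synthases, was at 63.8, 86.4 and 74.8 CPM in Bmal1WT and 64.7, 40.1 and 44.3 CPM in Bmal1KO (log2 difference -0.60, SE 0.21, edgeR adjusted p = 0.461). Bmal1KO replicate 1 was just inside the Bmal1WT range, and Bmal1KO replicates 2 and 3 were below it. Ormdl1 and Ormdl3, which restrain serine palmitoyltransferase, differed by 0.21 (SE 0.27) and -0.31 (SE 0.21) on the log2 scale. Ormdl1 was at -0.0033 without Bmal1WT replicate 2 and 0.41 without Bmal1WT replicate 1. Ormdl3 was at -0.57 without Bmal1KO replicate 1 and -0.13 without Bmal1KO replicate 3. Cers1 and Sptssb had 0 counts in all libraries, which allows up to 3 counts in each, and Cers3 and Degs2 were under the filter. Of the 3171 annotated exon bases of Cers1, 1349 overlap Gdf1 on the same strand. How reads shared by both genes were counted is not given, so the bound for Cers1 leaves that out.

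In sphingomyelin and ceramide phosphate metabolism, 6 of 11 genes were higher and 5 lower. Sgms1 and Sgms2 both encode sphingomyelin synthases and stood on opposite sides. Sgms2 levels were 20.5, 16.9 and 19.2 CPM for Bmal1WT and 12.8, 11.9 and 10.9 CPM for Bmal1KO, without overlap (log2 fold change -0.67, SE 0.25, edgeR adjusted p = 0.468). Sgms1 was at 33.7, 31.4 and 34.1 CPM and at 38.9, 36.5 and 48.3 CPM, also without overlap (0.32, SE 0.19, edgeR adjusted p = 0.618), with a log2 fold change of 0.18 without Bmal1KO replicate 3. Smpd2, a neutral sphingomyelinase, was at 54.9 ± 10.5 and 37.1 ± 2.66 CPM (-0.56, SE 0.19, SD with n = 3, edgeR adjusted p = 0.441), and 905 of its 4468 exon bases overlap Mical1. Smpd3, another neutral sphingomyelinase, had a log2 fold change of -0.20 with SE 0.22, or -0.37 with Bmal1WT replicate 1 left out and -0.09 with Bmal1WT replicate 3 left out.

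In the handling of sphingosine and sphingosine 1-phosphate, 6 of 9 tested genes were higher and 3 lower, and this group held the smallest p among the 48. Sgpp1, the phosphatase that returns sphingosine 1-phosphate to sphingosine, was at 14.8, 11.0 and 13.8 CPM in Bmal1WT libraries and 23.6, 30.9 and 23.7 CPM in Bmal1KO libraries. Every Bmal1KO library was above every Bmal1WT library (log2 fold change 0.98, SE 0.25, edgeR adjusted p = 0.407). Sgpl1, the lyase that irreversibly splits sphingosine 1-phosphate, was at 138, 142 and 133 CPM in Bmal1WT libraries and 177, 194 and 239 CPM in Bmal1KO libraries, again without overlap (0.56, SE 0.16, edgeR adjusted p = 0.414). Sgpp1 and Sgpl1 both use sphingosine 1-phosphate as their substrate. Spns2, an exporter of it, was at 12.9, 6.56 and 11.6 CPM in Bmal1WT libraries and 5.56, 1.13 and 6.95 CPM in Bmal1KO libraries (-1.19, SE 0.56). The groups overlapped, Bmal1KO replicate 2 was the lowest with 10 counts, and without that library the log2 fold change was -0.73. The receptor S1pr1 was at 70.7 ± 14.8 and 51.8 ± 8.47 CPM (-0.45, SE 0.20, SD with n = 3), also with overlap, and at -0.28 without Bmal1WT replicate 3.

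Ceramidases outside the lysosome were 2 higher and 1 lower of 3 tested. Acer2, the ceramidase of the Golgi, was at 8.93 ± 3.65 and 14.3 ± 3.30 CPM (log2 fold change 0.67, SE 0.37), Acer3 had a log2 fold change of 0.23 (SE 0.23) and Asah2, the neutral ceramidase, one of -0.09 (SE 0.32). All 3 values depended on which library was left out. Acer2 was at 0.37 without Bmal1WT replicate 2, Acer3 ran from 0.04 without Bmal1KO replicate 3 to 0.41 without Bmal1KO replicate 1, and Asah2 changed sign without Bmal1KO replicate 3 (0.05). Acer1 had 0 counts in all libraries, which allows up to 3 counts in each.

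Of the glycosphingolipid synthesis and transfer genes, 5 of 7 tested were higher and 2 lower. B4galt5 and B4galt6, which make lactosylceramide from the product of Ugcg, differed by 0.18 (SE 0.24) and 0.23 (SE 0.28) on the log2 scale. The ganglioside enzyme B4galnt1 stood at 0.32 (SE 0.23). Without Bmal1KO replicate 3 the differences of B4galt5, B4galt6 and B4galnt1 were 0.0013, 0.09 and 0.19, and without Bmal1KO replicate 1 they were 0.31, 0.43 and 0.52. B4galt6 was also at 0.13 without Bmal1WT replicate 3 and 0.12 without Bmal1KO replicate 2. Gltp, a glycolipid transfer protein, was at 288 ± 26.3 and 236 ± 29.3 CPM (SD, n = 3), a log2 fold change of -0.29 with SE 0.16, or -0.19 without Bmal1KO replicate 1.

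The genes listed under lysosomal breakdown, most of which act beside Smpd1 and Asah1, were 5 higher and 7 lower of 12. Their median log2 fold change was -0.01. Gm2a, the activator of GM2 breakdown, had a log2 fold change of -0.26 (SE 0.17). Galc and Gla, which remove galactose from glycolipids, stood at 0.38 (SE 0.24) and 0.36 (SE 0.26). Gla was at 40.3, 30.3 and 38.1 CPM in Bmal1WT libraries and 29.9, 45.6 and 63.8 CPM in Bmal1KO libraries, so Bmal1KO replicate 1 was the lowest of the 6 and replicate 3 the highest. Its log2 fold change was 0.06 without Bmal1KO replicate 3 and 0.59 without Bmal1KO replicate 1.

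**Figure D4:**
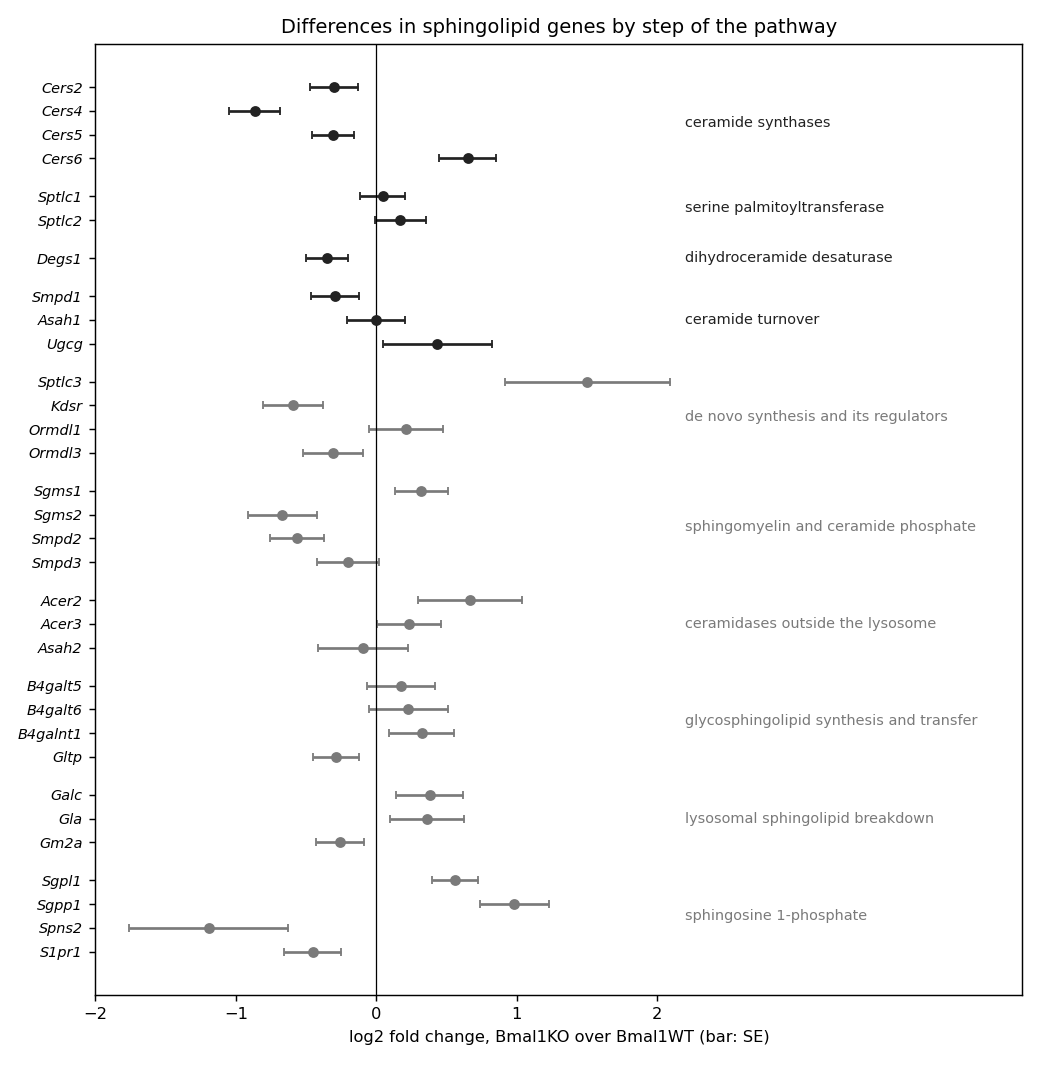
log2 fold change of Bmal1KO over Bmal1WT with its SE for the 10 enzymes (black) and for other sphingolipid genes named by role (grey). Cers4 stood at -0.87 and Cers6 at 0.65, Sptlc1 and Asah1 lay near 0, and Sgpp1 and Sgpl1 stood at 0.98 and 0.56.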

How the data were processed

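Per the labels' protocols, cDNA was primed with oligo(dT) on 2 ng of RNA, amplified, tagmented and read as pairs of 38 bp. Such libraries mark no strand and carry no molecular identifiers, so the floor of 3 counts covers counting error only. The authors deposited raw counts per gene symbol. The submitters' processing notes name STAR 2.7.3a, featureCounts and mm10. Not given in the sources used here are the annotation, the strand setting and how multi-mapping reads were counted.

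Groups and replicate numbers came from the titles. Separate animals are not stated, so p-values reflect only the spread between samples, which may be technical. The members and gene lists were chosen with earlier results of these data known.

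The test, over all 6 libraries, used edgeR 4.0.16 (R 4.3.3). Steps were filterByExpr, TMM, and a robust quasi-likelihood F-test of Bmal1KO against Bmal1WT without covariates, with Benjamini-Hochberg adjustment over 13859 genes and a threshold of 0.05. CPM use TMM-scaled sizes of the tested genes. The SE is the unshrunken log2 coefficient divided by the square root of F. All members were named, with up to 4 other genes per role of smallest p and genes at 0 throughout, except 1 that is not reported here. Lengths and overlaps came from GENCODE M21 (mm10). The test was tried on simulated counts. Alternatives were other scaling, other filters, DESeq2 1.42.0, limma 3.58.1 voom with quality weights, the replicate number as a block, and libraries left out.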

Additional observations from a re-analysis of the deposited data

How the results depend on the processing

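Of 448 log2 fold changes (32 named genes under 14 alternatives), 436 kept their direction without passing the test, 3 kept it and passed, and 9 in 4 genes had the opposite sign. The 3 were Cers4, at -0.89 with no filter, -0.88 with DESeq2 and -0.996 without Bmal1KO replicate 1 (adjusted p of 0.00263, 0.00768 and 0.0326), while its adjusted p in the other alternatives was above 0.05. Among the 10 enzymes 1 gene, Cers4, therefore passed with no filter and with DESeq2, and 0 to 1 with 1 library left out. Over all genes, 186 of 34517 passed with no filter, and 60 passed with DESeq2, which was given 55011 symbols and filtered them itself. With Bmal1WT replicate 1 and Bmal1KO replicate 1 both left out, 61 of 13958 passed. With 1 library left out, 0 to 156 passed, the 156 of 14247 without Bmal1KO replicate 1. The cause was not tested.

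The median of the 10 was -0.0541 with library size alone for scaling, which shifted the median of all genes by 0.09, -0.0506 with both replicates 1 left out, and -0.171 to -0.0603 with 1 library left out. Asah1 was at 0.0915 with library size alone, 0.00309 with at least 1 CPM in 3 libraries, 0.0266 with limma voom and 0.30 without both replicates 1, and the 6 fits that each lack 1 library gave -0.131 to 0.18. With 1 library left out, Sptlc1 ran from -0.048 to 0.104, Ormdl1 from -0.00334 to 0.41 (both lowest without Bmal1WT replicate 2) and Asah2 from -0.212 to 0.0504 (highest without Bmal1KO replicate 3).

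With the replicate number as a block, 0 genes passed over all genes, among the 10 and among the 48 tested others, with 1121 at an unadjusted p under 0.05 against 1290 without the block. The medians were -0.16 for the 10 and 0.06 for the others. Same-numbered libraries deviated together at correlations of -0.07, 0.09 and -0.03, and 2 of 6 libraries correlated best with their own number. Such values cannot show whether the numbers pair the samples, because a pairing need not leave a shared deviation. Limma voom called 0 genes, with 1683 at an unadjusted p under 0.05. Depth limits Ugcg, Sptlc3 and the genes under the filter.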
